A study of Homo sapiens with 9 samples.

Results

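Fibronectin, tenascin C and 8 further genes for non-collagenous glycoproteins of the extracellular matrix were followed across 9 RNA-seq libraries of MDA-MB-231, a long-established human line of triple receptor negative breast cancer. The genes FN1, TNC, THBS1, SPARC, POSTN, EFEMP1, EFEMP2, FBLN1, FBN1 and MATN2 were picked by name and found by their symbol in the quantification of every library. All 10 were found among 58219 genes. Abundance was taken per gene, and for FN1 and TNC also per transcript. The 3 shAPT1 libraries came from cells made stable by a lentiviral short hairpin RNA against APT1 and puromycin selection. The 3 APT1wt libraries came from cells with lentiviral expression of wild-type APT1, and the 3 control libraries from cells with a scrambled RNA from a lentivirus. APT1 is the acyl-protein thioesterase made from LYPLA1, an enzyme that takes palmitate off membrane-bound proteins. The study asked how APT1 bears on the sharing out of Notch and Wnt signalling at cell division. No group carried an empty expression vector, so extra APT1 and the change of vector cannot be told apart in APT1wt.

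Matrix glycoproteins are secreted proteins that cells lay down around themselves and grip through integrins and other receptors. Fibronectin is woven into fibrils and carries adhesion sites for integrins. Tenascin C, thrombospondin 1, SPARC and periostin are matricellular proteins: they change how cells hold on to matrix more than they build it. Fibrillin 1 and the fibulins belong to microfibrils, elastic fibres and basement membranes, and matrilin 2 links filament networks. Fibronectin is widely used as a marker of mesenchymal, motile carcinoma cells, and both fibronectin and tenascin C are abundant in tumour stroma. Fibronectin made by tissue cells, unlike that of plasma, can include extra type III repeats called EDA and EDB, each encoded by 1 exon that can be skipped whole. Tenascin C likewise has a block of alternatively spliced type III repeats.

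The FN1 transcripts assigned most reads differ in these exons, so both exons are shown first, read from the GENCODE 29 transcripts on GRCh38, 5′ to 3′ on the transcribed strand. EDB has 273 bases and lies at chr2:215392931-215393203 on the minus strand, and EDA has 270 bases at chr2:215380811-215381080 on the same strand. Capitals mark GAAGAAGA, a purine-rich stretch known as a splicing enhancer of EDA, which was found in EDA and not in EDB.
FN1 EDB: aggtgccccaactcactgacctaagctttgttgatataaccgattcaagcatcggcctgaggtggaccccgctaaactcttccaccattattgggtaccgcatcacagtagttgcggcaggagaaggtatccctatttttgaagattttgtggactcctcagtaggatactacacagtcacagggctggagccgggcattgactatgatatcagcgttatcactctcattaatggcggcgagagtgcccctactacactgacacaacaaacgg
FN1 EDA: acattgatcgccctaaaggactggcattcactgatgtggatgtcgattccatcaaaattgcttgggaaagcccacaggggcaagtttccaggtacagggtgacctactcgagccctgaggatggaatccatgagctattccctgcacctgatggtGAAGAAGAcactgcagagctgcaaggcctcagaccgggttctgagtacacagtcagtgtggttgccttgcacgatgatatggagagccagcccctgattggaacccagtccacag
Of 1547 internal coding exons in the annotation that are a whole number of codons long, with 85 to 95 codons, 40 (2.59%) held GAAGAAGA. The exon search was on the transcribed strand alone.

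Upstream bases are shown as examples for FN1, the gene followed by transcript, and THBS1, the most abundant of the 10, before their RefSeq start sites (GRCh38.p14). Capitals in the FN1 window mark TGACGTCA, the cAMP response element, 183 to 176 bases before the start. The window printed for FN1, chr2:215436173-215436318 on the minus strand, ends where the outermost annotated FN1 transcript begins. In the THBS1 window, chr15:39580829-39581078 on the plus strand, capitals mark GGAATG, the reverse complement of the TEAD motif CATTCC, 46 to 41 bases before the start.
FN1 promoter: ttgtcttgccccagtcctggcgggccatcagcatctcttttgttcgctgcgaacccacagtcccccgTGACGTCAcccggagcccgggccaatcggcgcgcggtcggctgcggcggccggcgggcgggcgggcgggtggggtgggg
THBS1 promoter: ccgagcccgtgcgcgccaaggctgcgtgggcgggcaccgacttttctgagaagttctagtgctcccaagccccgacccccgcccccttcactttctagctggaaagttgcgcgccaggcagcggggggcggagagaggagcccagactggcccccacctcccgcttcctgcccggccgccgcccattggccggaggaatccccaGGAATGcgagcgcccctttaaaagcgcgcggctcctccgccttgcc
RefSeq promoters were found for 8 of the 10 genes, and 5 motifs were searched on both strands of the 250 upstream bases. TGACGTCA was in the FN1 window alone among these 8, and in 1.65% of all 35116 windows. CATTCC was in the windows of THBS1, FBN1 and SPARC, and in 11.9% of all windows. The GC box GGGCGG was in 5 of the 8 windows and in 42.6% of all. CCAAT was in those of FN1 and THBS1 and in 32% of all, and the AP-1 motif TGANTCA in that of POSTN and in 6.57% of all. Matches of different motifs did not overlap in these 8 windows.

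The libraries held between 12381931 and 18667383 estimated reads. LYPLA1 stood at 38.2, 30.5 and 36.7 TPM in shAPT1, at 169, 171 and 170 TPM in APT1wt and at 87.1, 92.7 and 80.5 TPM in control, so each label held for its target. TPM is a share of the library corrected for transcript length. The line's own markers were present, with VIM at 1800 to 2370 TPM and CD44 at 659 to 923 TPM. The receptor genes ESR1 and PGR were at most 0.219 and 0.0565 TPM, but the receptor gene ERBB2 was at 27.5 to 37.3 TPM. The other genes on the list for the line were EGFR at 45.3 to 71.1, KRT18 at 223 to 403 and CDH1 at 0.383 to 2.76 TPM. No replicate pair agreed within sampling noise (chi-square per gene 2.07 to 16.8, the highest for shAPT1 replicates 1 and 3). Separate cultures are not stated for the replicates, so p-values cover the spread of these libraries only, and part of it may be technical.

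Of the 10 genes, 9 had enough reads to be tested. In shAPT1 against control, FN1, THBS1, EFEMP1, EFEMP2, FBN1 and MATN2 were higher, TNC and FBLN1 were lower, and SPARC did not pass (edgeR quasi-likelihood test, Benjamini-Hochberg adjusted p under 0.05 over all 15233 genes tested). Among all tested genes, 24.4% were called in that comparison, 12.8% higher and 11.6% lower. In APT1wt against control, 6 of the 9 were higher (FN1, THBS1, SPARC, EFEMP2, FBN1 and MATN2), TNC was lower, and EFEMP1 and FBLN1 did not pass. The background there was 23.4%, with 11.8% higher and 11.6% lower. In shAPT1 against APT1wt, 4 were higher (THBS1, EFEMP1, FBN1 and MATN2), 4 were lower (TNC, SPARC, EFEMP2 and FBLN1) and FN1 did not pass, against 12.7% higher and 12.4% lower of all tested genes (25.1% in all). The TPM ranges were apart for 7, 6 and 7 of the 10 genes in these 3 comparisons, taken in the same order, where 31.1%, 35% and 32.9% of all tested genes had ranges apart. The comparisons of shAPT1 and APT1wt with control share the same 3 control libraries. The genes were picked with earlier results of these data known, so these counts describe the genes and do not set them apart from others.

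**Figure D1:**
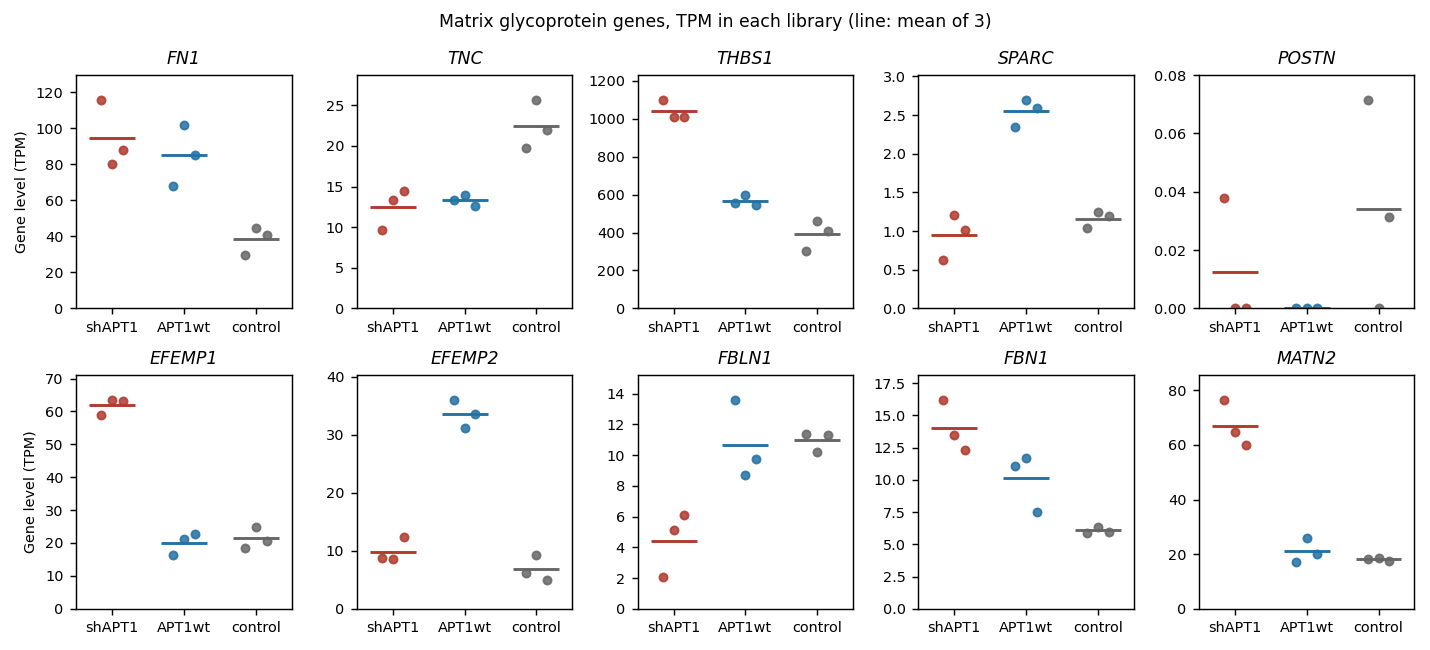
Gene level in TPM (vertical axes, linear, from 0) of the 10 genes in each library of shAPT1, APT1wt and control. Points are libraries and lines are means of 3. FN1 and THBS1 lie above control in both lines and TNC lies below it, EFEMP1 and MATN2 stand high in shAPT1, and EFEMP2 and SPARC stand high in APT1wt.

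**Figure D2:**
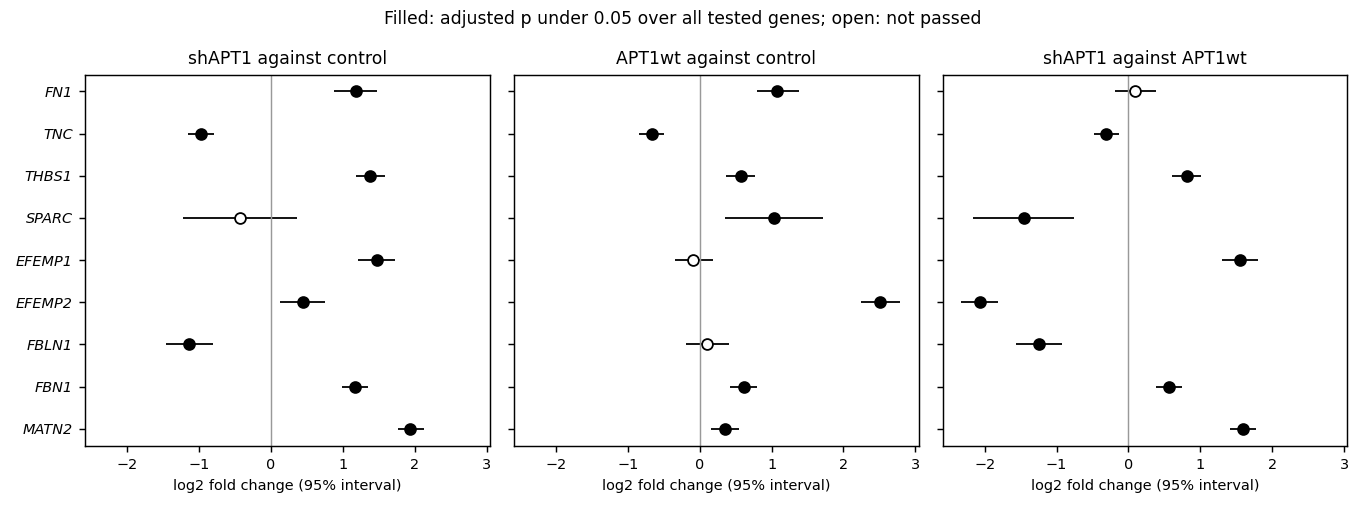
Log2 fold change of the 9 tested genes with its 95% interval in the 3 comparisons. Filled points passed an adjusted p of 0.05 and open points did not. FN1 is at 1.18, 1.08 and 0.09, and EFEMP2 at 0.44, 2.51 and -2.07 from left to right.

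FN1 (ENSG00000115414.18; chromosome 2, 215360440 to 215436172, minus strand, GRCh38), the fibronectin gene, stood at 116, 80.5 and 87.8 TPM in shAPT1, at 68.2, 102 and 85.1 TPM in APT1wt and at 29.9, 44.8 and 41.0 TPM in control. Every library of both lines was above every control library, and both lines overlapped each other. On summed reads FN1 was 2.26-fold higher in shAPT1 than in control (log2 fold change 1.18 ± 0.14 SE, edgeR adjusted p = 3.1e-05). In APT1wt it was 2.12-fold higher than in control (1.08 ± 0.14, edgeR adjusted p = 6e-05). Between shAPT1 and APT1wt the log2 difference was 0.09, with a 95% interval of -0.19 to 0.38 (edgeR adjusted p = 0.66), so a difference of more than 0.38 in either direction lies outside the interval. The highest FN1 library, shAPT1 replicate 1, drew 15.8 of its 116 TPM from ENST00000480737.1, a retained-intron transcript of 384 nt that held 29 reads there. This short transcript was listed at 6.09 TPM in APT1wt replicate 2 and at 0 in the other 7 libraries.

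Of 27 FN1 transcripts, 11 were tested, and 2 were higher in each line against control, where 1.62% (shAPT1) and 1.43% (APT1wt) of all 52392 tested transcripts were called. None was called in shAPT1 against APT1wt by edgeR, where 1.3% of all were, and none had an unadjusted p under 0.05. The most abundant was ENST00000446046.5, a coding transcript of 46 exons that holds EDA and skips EDB. It stood at 47.0, 33.6 and 43.3 TPM in shAPT1, at 27.7, 39.5 and 37.6 TPM in APT1wt and at 13.2, 14.1 and 19.3 TPM in control. Both lines were clear of control, with log2 fold changes of 1.36 ± 0.18 in shAPT1 (edgeR adjusted p = 0.014) and 1.18 ± 0.18 in APT1wt (edgeR adjusted p = 0.023).

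The other called transcript, ENST00000456923.5, is annotated from inside EDB onwards and skips EDA. It was at 22.5, 13.6 and 15.3 TPM in shAPT1, 10.4, 14.6 and 13.0 TPM in APT1wt and 6.07, 4.22 and 5.71 TPM in control. Its log2 fold changes were 1.62 ± 0.23 in shAPT1 (edgeR adjusted p = 0.017) and 1.25 ± 0.23 in APT1wt (edgeR adjusted p = 0.042). Without control replicate 2, neither transcript passed in either line, and in APT1wt neither passed without control replicate 1, APT1wt replicate 2 or APT1wt replicate 3. ENST00000443816.5, which skips both EDB and EDA, was at 12.2, 20.6 and 14.5 TPM in shAPT1, 11.1, 20 and 16.4 TPM in APT1wt and 4.86, 11.5 and 5.91 TPM in control. It did not pass in shAPT1 (1.06 ± 0.36, edgeR adjusted p = 0.25) or in APT1wt (1.11 ± 0.36, edgeR adjusted p = 0.24). ENST00000323926.10, the main transcript with both exons, averaged 5.35 ± 1.52 TPM in shAPT1, 6.54 ± 0.359 TPM in APT1wt and 3.41 ± 1.97 TPM in control (SD, n = 3 each) and did not pass either. The remaining FN1 transcripts with a mean of at least 1 TPM in a group were ENST00000336916.8, which is coding, and the retained-intron transcripts ENST00000494446.1, ENST00000461974.1, ENST00000485567.1, ENST00000474036.1 and ENST00000480737.1. Each of these 6 was under 0.1 TPM in at least 1 library, and no library had more than 6.74 TPM of one except for ENST00000480737.1 in shAPT1 replicate 1.

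**Figure D3:**
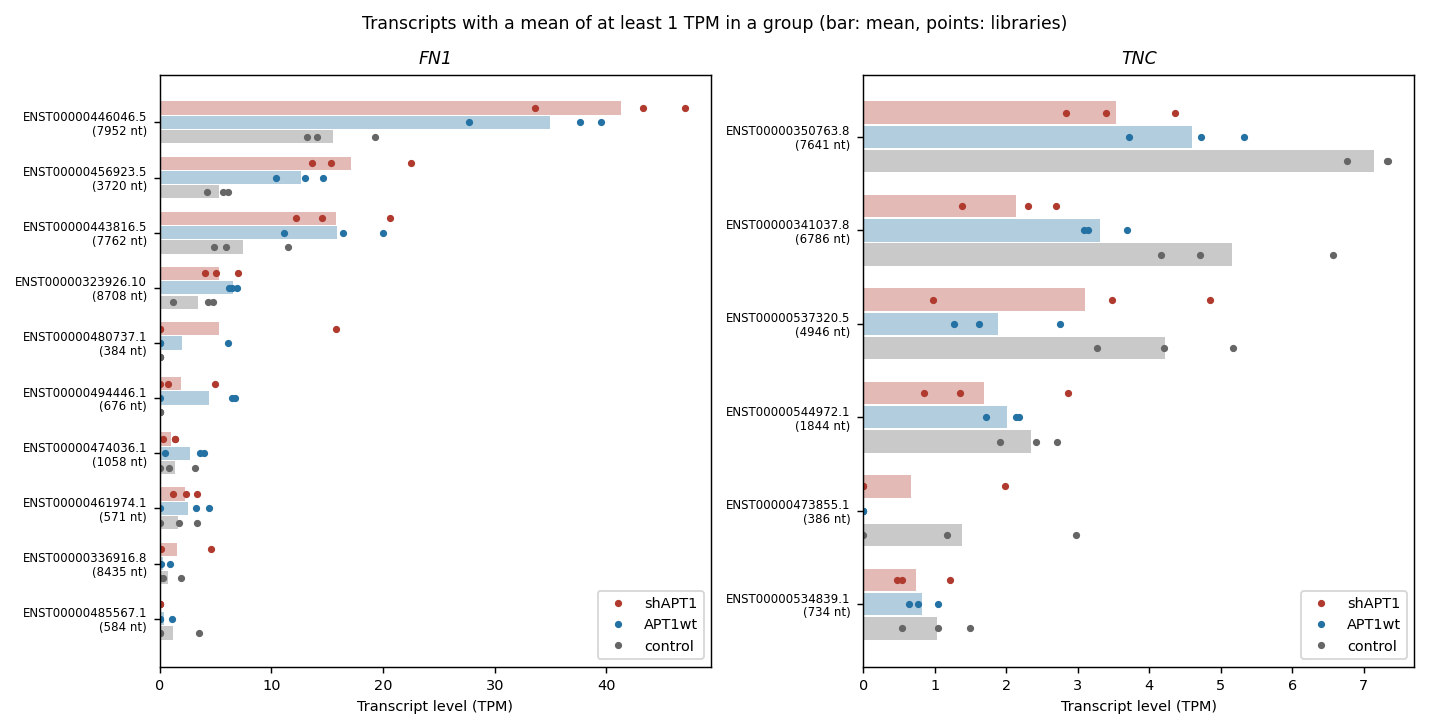
Level in TPM (horizontal axes, linear, from 0) of FN1 and TNC transcripts with a mean of at least 1 TPM in a group. Bars are means of 3 libraries and points are libraries, in shAPT1, APT1wt and control from top to bottom. ENST00000446046.5 is the largest FN1 transcript in all 3 groups, and ENST00000350763.8 the largest TNC transcript.

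The make-up of FN1 mRNA was then read as the share of FN1 TPM, among transcripts that span an exon, held by transcripts with that exon. EDA was held by 6 of 14 spanning transcripts, and its share was 60.9%, 51.1% and 60.8% in shAPT1, 60.2%, 53.8% and 57.2% in APT1wt and 55.9%, 52.3% and 66.6% in control. The 3 groups overlapped, with means of 57.6 ± 5.6%, 57.1 ± 3.2% and 58.3 ± 7.4% (SD, n = 3 each) in shAPT1, APT1wt and control. The difference from control was -0.709 points in shAPT1 and -1.22 points in APT1wt, both with a two-sided exact permutation p of 0.9. Both turned positive without control replicate 3 (3.46 and 2.95 points), and so did the difference in shAPT1 without shAPT1 replicate 2 (2.53 points) and that in APT1wt without APT1wt replicate 2 (0.414 points).

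EDB was held by 3 of 11 spanning transcripts and was the rarer exon. Its share was 10.3%, 9.17% and 6.45% in shAPT1, 13.7%, 10.3% and 11.1% in APT1wt and 9.53%, 16.6% and 16.6% in control. Control replicate 1 lay inside the range of shAPT1, and the other control libraries lay above both lines. The difference was -5.6 points in shAPT1 against control (exact permutation p = 0.2), -2.54 points in APT1wt against control (exact permutation p = 0.4) and -3.06 points in shAPT1 against APT1wt (exact permutation p = 0.1). With 3 against 3 libraries the exact test cannot go below 0.1, and over the 6 comparisons of EDA and EDB the Benjamini-Hochberg adjusted p values were 0.6 to 0.9. Transcripts with EDB held 164 to 785 reads per library. Where ENST00000456923.5, which starts inside the exon, was counted with them, the means came to 27.4%, 27.5% and 28.6% in shAPT1, APT1wt and control, and the difference in shAPT1 against control to -1.21 points (exact permutation p = 0.8).

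A test of each transcript's share of its gene gave no call among the FN1 and TNC transcripts in any of the 3 comparisons, by edgeR's diffSpliceDGE or by limma's diffSplice. At an unadjusted p under 0.05, each tool called 1 TNC transcript in shAPT1 against APT1wt and none elsewhere. Across all 47934 transcripts tested for share, 0.334%, 0.259% and 0.313% were called by edgeR and 0.365%, 0.213% and 0.263% by limma, in shAPT1 and APT1wt against control and between both lines.

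**Figure D4:**
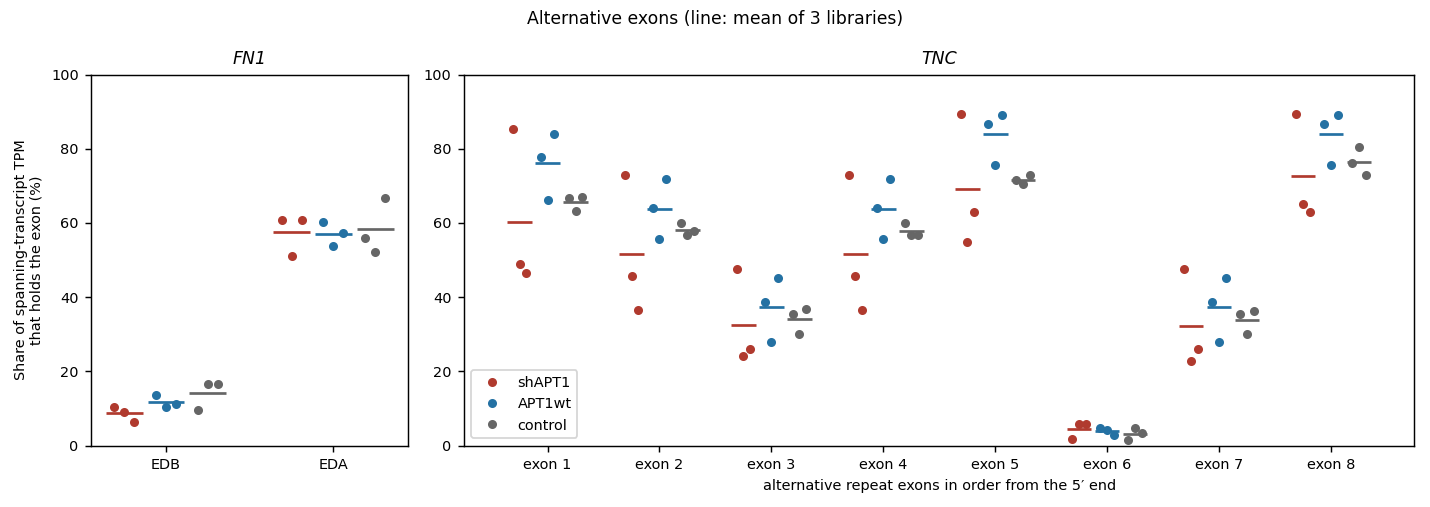
Share in percent (vertical axis, 0 to 100) of spanning-transcript TPM that holds EDB or EDA of FN1 (left) and each of 8 alternative repeat exons of TNC in order from the 5′ end (right). Points are libraries and lines are means of 3 in shAPT1, APT1wt and control. EDA lies at 51.1% to 66.6% in the 9 libraries, and the widest spread is among shAPT1 libraries for TNC. The 8 TNC shares are not separate readings, since several rest on the same transcripts.

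TNC (ENSG00000041982.15; chromosome 9, 115019578 to 115118257, minus strand) encodes tenascin C, which loosens the hold of cells on fibronectin. It stood at 9.65, 13.3 and 14.5 TPM in shAPT1, at 13.3, 14.0 and 12.6 TPM in APT1wt and at 19.7, 25.7 and 21.9 TPM in control. All 6 libraries of both lines were below all 3 control libraries. TNC was lower in shAPT1 (log2 fold change -0.97 ± 0.08, edgeR adjusted p = 1.4e-06) and in APT1wt (-0.67 ± 0.08, edgeR adjusted p = 3.8e-05), opposite in sign to FN1 in both lines. In shAPT1 it was also lower than in APT1wt on summed reads (-0.31 ± 0.08, edgeR adjusted p = 0.014). The TPM ranges of both lines overlapped, and that call was lost with an offset for transcript length (-0.16, edgeR adjusted p = 0.45). It was also lost in the deposited gene table (-0.19, limma adjusted p = 0.38) and without APT1wt replicate 3 (-0.30, edgeR adjusted p = 0.053).

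Of 14 TNC transcripts 5 were tested. ENST00000350763.8, the longest by exon number with 28 exons, was at 4.36, 2.83 and 3.40 TPM in shAPT1, 4.73, 3.72 and 5.33 TPM in APT1wt and 6.77, 7.34 and 7.32 TPM in control. Each control library was above every library of both lines, and the transcript was lower in shAPT1 (-1.08 ± 0.18, edgeR adjusted p = 0.027). In APT1wt it did not pass (-0.62 ± 0.17, edgeR adjusted p = 0.17). The call in shAPT1 was lost without any 1 of the 3 control libraries, shAPT1 replicate 2, shAPT1 replicate 3 or APT1wt replicate 1. ENST00000341037.8 averaged 2.13 ± 0.676 TPM in shAPT1, 3.31 ± 0.333 TPM in APT1wt and 5.15 ± 1.25 TPM in control (SD, n = 3 each). ENST00000537320.5 averaged 3.10 ± 1.97, 1.88 ± 0.771 and 4.22 ± 0.949 TPM in shAPT1, APT1wt and control, and ENST00000544972.1 averaged 1.69 ± 1.04, 2.01 ± 0.254 and 2.35 ± 0.403 TPM. None of these 3 passed in any comparison. ENST00000473855.1 and ENST00000534839.1, the last TNC transcripts with a group mean of at least 1 TPM, were not tested for low reads.

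The annotation holds 8 alternative TNC exons of 273 or 276 bases that are skipped whole, on chromosome 9 between 115046410 and 115064919. They were in 3.21% to 76.5% of spanning-transcript TPM in control on average, with the sixth from the 5′ end the rarest. The shAPT1 libraries were not alike: the first of these exons was in 85.4% of spanning TPM in replicate 1, against 49.0% in replicate 2 and 46.6% in replicate 3. It was in 77.9%, 66.2% and 84.0% in APT1wt and in 66.7%, 63.1% and 66.9% in control, so control libraries were close together and lay within the range of shAPT1. These shares rest on 469 to 1279 reads of spanning transcripts per library. Counted from the 5′ end, exons 1, 2 and 4 had the same reads of holding transcripts in every library, and so did exons 5 and 8. The 8 shares are therefore not separate readings.

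THBS1 (ENSG00000137801.10; chromosome 15, 39581079 to 39599466, plus strand) encodes thrombospondin 1, a matricellular protein that activates latent TGF-beta and binds CD36 and CD47. It was by far the most abundant of the 10 genes, at 1100, 1010 and 1010 TPM in shAPT1, 557, 596 and 545 TPM in APT1wt and 304, 463 and 409 TPM in control. The 3 groups were fully apart, with shAPT1 highest and APT1wt between it and control. THBS1 was 2.61-fold higher in shAPT1 than in control (log2 fold change 1.38 ± 0.10, edgeR adjusted p = 2.1e-07) and 1.48-fold higher in APT1wt (0.57 ± 0.09, edgeR adjusted p = 0.00056). Between the lines it was 1.76-fold higher in shAPT1 than in APT1wt (0.81 ± 0.09, edgeR adjusted p = 3e-05). AC037198.2, an antisense gene that overlaps THBS1 exons, rose beside it at up to 9.28 TPM (1.55 ± 0.28 in shAPT1, edgeR adjusted p = 0.0012), and whether reads were counted by strand is not given in the sources used here.

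SPARC (ENSG00000113140.10; chromosome 5, 151661096 to 151687165, minus strand), which encodes a collagen-binding glycoprotein also called osteonectin, was near the lower limit of detection. It was at 0.631, 1.21 and 1.02 TPM in shAPT1, 2.35, 2.70 and 2.59 TPM in APT1wt and 1.04, 1.25 and 1.19 TPM in control, from 4 to 27 reads per library. APT1wt stood above both other groups, which overlapped. SPARC was higher in APT1wt than in control (1.03 ± 0.32, edgeR adjusted p = 0.03), a call that did not pass in DESeq2 (1.04, DESeq2 adjusted p = 0.11) or without any 1 of the control and APT1wt libraries (0.93 to 1.14). In shAPT1 against APT1wt it was lower (-1.46 ± 0.33, edgeR adjusted p = 0.0047), and shAPT1 against control gave -0.43 ± 0.37 (edgeR adjusted p = 0.45).

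POSTN (ENSG00000133110.14; chromosome 13, 37562583 to 37598844, minus strand), which encodes periostin, a protein of activated fibroblasts that binds tenascin C, was not tested. It held 1, 0 and 0 reads in shAPT1, none in APT1wt and 2, 0 and 1 reads in control, and its highest level was 0.0716 TPM, in control replicate 1. A difference in POSTN was not detectable at this depth.

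EFEMP1 and EFEMP2 encode fibulin 3 and fibulin 4, paralogs of the fibulin family. EFEMP1 (ENSG00000115380.19; chromosome 2, 55865967 to 55924139, minus strand) was at 58.8, 63.5 and 63.3 TPM in shAPT1, 16.3, 21.1 and 22.7 TPM in APT1wt and 18.6, 24.8 and 20.7 TPM in control. The shAPT1 libraries stood apart at close to the same level, and APT1wt overlapped control. EFEMP1 was 2.76-fold higher in shAPT1 than in control (1.47 ± 0.12, edgeR adjusted p = 1.1e-06) and 2.93-fold higher than in APT1wt (1.55 ± 0.12, edgeR adjusted p = 6.4e-07). In APT1wt against control the log2 fold change was -0.09, with a 95% interval of -0.35 to 0.18 (edgeR adjusted p = 0.68).

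EFEMP2 (ENSG00000172638.12; chromosome 11, 65866441 to 65873592, minus strand), whose product helps lysyl oxidase reach elastic fibres, was highest in the other line. It was at 8.76, 8.54 and 12.3 TPM in shAPT1, 36.0, 31.2 and 33.5 TPM in APT1wt and 6.15, 9.32 and 4.89 TPM in control. APT1wt was far above both other groups, which overlapped. EFEMP2 was 5.71-fold higher in APT1wt than in control, the largest change among the 9 tested genes (2.51 ± 0.13, edgeR adjusted p = 1.6e-08), and was lower in shAPT1 than in APT1wt (-2.07 ± 0.12, edgeR adjusted p = 4.6e-08). The rise in shAPT1 against control was marginal (0.44 ± 0.15, edgeR adjusted p = 0.041): it failed in 14 of 19 other settings, among them DESeq2 (0.44, DESeq2 adjusted p = 0.069). MUS81, which overlaps an EFEMP2 exon on the other strand, gave 0.01 ± 0.08 in APT1wt against control (edgeR adjusted p = 0.96).

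FBLN1 (ENSG00000077942.18; chromosome 22, 45502238 to 45601135, plus strand) encodes fibulin 1, which binds fibronectin and basement membrane proteins. It was at 2.08, 5.10 and 6.12 TPM in shAPT1, 13.6, 8.69 and 9.77 TPM in APT1wt and 11.4, 10.2 and 11.3 TPM in control. Each shAPT1 library was below each library of the other groups, with replicate 1 the lowest, and APT1wt overlapped control. FBLN1 was lower in shAPT1 than in control (-1.14 ± 0.15, edgeR adjusted p = 9.9e-05) and than in APT1wt (-1.24 ± 0.15, edgeR adjusted p = 4.3e-05). Its log2 fold change in APT1wt against control was 0.10 (edgeR adjusted p = 0.65) and became -0.03 with the length offset.

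FBN1 (ENSG00000166147.13; chromosome 15, 48408306 to 48645849, minus strand) encodes fibrillin 1, the backbone of microfibrils. It was at 16.2, 13.5 and 12.3 TPM in shAPT1, 11.1, 11.7 and 7.54 TPM in APT1wt and 5.90, 6.36 and 5.96 TPM in control. The 3 groups were apart in the order shAPT1, APT1wt, control, as for THBS1 on the same chromosome. FBN1 was 2.25-fold higher in shAPT1 than in control (1.17 ± 0.08, edgeR adjusted p = 3.2e-07) and 1.52-fold higher in APT1wt (0.61 ± 0.09, edgeR adjusted p = 0.00016). The difference between shAPT1 and APT1wt (0.57 ± 0.08, edgeR adjusted p = 0.00019) did not pass with the length offset (0.39, edgeR adjusted p = 0.082) or in the deposited gene table (0.40, limma adjusted p = 0.085).

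MATN2 (ENSG00000132561.13; chromosome 8, 97868840 to 98036716, plus strand) encodes matrilin 2, an adaptor of matrix filaments. It was at 76.5, 64.6 and 59.8 TPM in shAPT1, 17.0, 26 and 20.1 TPM in APT1wt and 18.2, 18.5 and 17.5 TPM in control. The shAPT1 libraries were far above the rest, and APT1wt replicate 1 was below every control library. MATN2 was 3.85-fold higher in shAPT1 than in control, the largest rise of the 9 genes there (1.94 ± 0.09, edgeR adjusted p = 3.9e-09), and 3.03-fold higher than in APT1wt (1.6 ± 0.08, edgeR adjusted p = 1.4e-08). In APT1wt against control the value was 0.35 ± 0.09 (edgeR adjusted p = 0.012), which did not pass with the length offset (0.22, edgeR adjusted p = 0.32), in the deposited gene table (0.22, limma adjusted p = 0.32) or without APT1wt replicate 2 (0.29, edgeR adjusted p = 0.061). Without control replicate 1 its edgeR adjusted p was 0.05 (0.32). The 50 tested genes on each side of MATN2, in order of position, were taken as its neighbours. Their median log2 fold change was 0.24 in shAPT1 and 0.27 in APT1wt, which leaves 1.70 and 0.08 for MATN2. For the 8 other tested genes the medians of the neighbours lay between -0.17 and 0.14 in both comparisons with control.

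By level, the order in control was THBS1 at 392 ± 81, FN1 at 38.6 ± 7.8, TNC at 22.4 ± 3, EFEMP1 at 21.4 ± 3.1, MATN2 at 18.1 ± 0.5, FBLN1 at 11 ± 0.65, EFEMP2 at 6.79 ± 2.3, FBN1 at 6.07 ± 0.25, SPARC at 1.16 ± 0.11 and POSTN at 0.0343 ± 0.036 TPM (SD, n = 3 each). TNC and EFEMP1 overlapped there, and so did EFEMP2 and FBN1. In shAPT1 the order was THBS1 (1040 ± 53), FN1 (94.8 ± 19), MATN2 (67 ± 8.6), EFEMP1 (61.9 ± 2.7), FBN1 (14 ± 2), TNC (12.5 ± 2.5), EFEMP2 (9.86 ± 2.1), FBLN1 (4.43 ± 2.1), SPARC (0.954 ± 0.29) and POSTN, where MATN2 overlapped EFEMP1 and TNC overlapped both FBN1 and EFEMP2. In APT1wt it was THBS1 (566 ± 27), FN1 (85.1 ± 17), EFEMP2 (33.5 ± 2.4), MATN2 (21.1 ± 4.6), EFEMP1 (20 ± 3.3), TNC (13.3 ± 0.7), FBLN1 (10.7 ± 2.6), FBN1 (10.1 ± 2.3), SPARC (2.55 ± 0.18) and POSTN, where MATN2 overlapped EFEMP1 and FBLN1 overlapped both TNC and FBN1.

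Genes of the same matrix system were taken from 4 further lists, chosen as listed under the methods. Over all tested genes, 12.8% were higher and 11.6% lower in shAPT1 against control, and 11.8% and 11.6% in APT1wt against control. Between shAPT1 and APT1wt the shares were 12.7% and 12.4%. Of 23 tested genes among 49 other matrix glycoproteins, 6 were higher and 2 lower in shAPT1 against control, with a median log2 fold change of 0.11 against 0.00 for all tested genes. THBS2, the sister gene of THBS1, was at 4.0 ± 0.35 TPM in shAPT1 and 0.269 ± 0.12 TPM in control (4.17 ± 0.23, edgeR adjusted p = 3.1e-08). NOV, a matricellular CCN family gene (1.00 ± 0.17), and LTBP3, a latent TGF-beta binding protein gene (0.88 ± 0.14), were also higher, and its relative LTBP2 was lower (-0.82 ± 0.12). In APT1wt against control 5 were higher and 1 lower, with a median of 0.06. LTBP3 was at 39.5 ± 0.77 TPM in APT1wt and 11.9 ± 1.8 TPM in control (1.75 ± 0.13, edgeR adjusted p = 6.3e-07). TNXB, a tenascin gene (1.13 ± 0.22), and TGFBI (0.86 ± 0.14) were higher and LTBP1 was lower (-0.92 ± 0.12). In shAPT1 against APT1wt 6 were higher and 8 lower, with a median of 0.07, THBS2 (3.39 ± 0.21), TNXB (-1.50 ± 0.22), NOV (1.01 ± 0.17) and LTBP2 (-1.0 ± 0.11) having the largest changes.

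Of 12 tested receptor genes 2 were higher and 3 lower in shAPT1 against control, with a median of -0.09. Called over all tested genes were 24.4% there, 23.4% in APT1wt against control and 25.1% in shAPT1 against APT1wt. ITGB3, the beta chain of an integrin that binds fibronectin and thrombospondin, was at 3.38 ± 0.48 TPM in shAPT1 and 1.18 ± 0.48 TPM in control (1.46 ± 0.22, edgeR adjusted p = 0.00033). The syndecan gene SDC4, whose product helps integrins bind fibronectin (-0.95 ± 0.14), the hyaluronan receptor gene CD44 (-0.66 ± 0.08) and the syndecan gene SDC1 (-0.36 ± 0.12) were lower. In APT1wt against control ITGB3 was higher (1.38 ± 0.23) and CD47, a thrombospondin receptor gene, was lower (-0.31 ± 0.10), with a median of 0.02 over the 12. In shAPT1 against APT1wt 3 were lower by edgeR, SDC4 (-0.63 ± 0.13), CD44 (-0.51 ± 0.08) and ITGAV (-0.31 ± 0.09), with a median of -0.08.

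Among 17 tested genes for assembly, cross-linking and secretion, 3 were higher and 1 lower in shAPT1 and 3 higher in APT1wt, each against control (edgeR). Called over all tested genes were 24.4% in shAPT1 and 23.4% in APT1wt, each against control, and 25.1% in shAPT1 against APT1wt. LOX, the lysyl oxidase that cross-links elastin and collagen, was at 22.4 ± 4 TPM in shAPT1, 16.7 ± 0.79 TPM in APT1wt and 9 ± 0.51 TPM in control (1.17 ± 0.11 and 0.92 ± 0.12 in the lines). SEC23A, which coats the vesicles that carry matrix proteins from the endoplasmic reticulum, was at 81.5 ± 6.5 TPM in shAPT1, 71.4 ± 8.7 TPM in APT1wt and 51.4 ± 0.57 TPM in control (0.61 ± 0.06 and 0.47 ± 0.06). THSD4 was higher (0.45 ± 0.10) and the transglutaminase gene TGM2 lower (-0.37 ± 0.11) in shAPT1, and ADAMTSL4, a fibrillin-binding protein gene, was higher in APT1wt (0.76 ± 0.10). The medians of the list were 0.03 in shAPT1 and 0.15 in APT1wt, and 2 genes, ADAMTSL4 (-0.53 ± 0.09) and FURIN (-0.29 ± 0.09), were lower in shAPT1 against APT1wt (median -0.15).

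Of 12 tested proteases that cut matrix glycoproteins, 1 was higher and 4 lower in shAPT1 against control (median -0.19). Called over all tested genes were 24.4% there, 23.4% in APT1wt against control and 25.1% in shAPT1 against APT1wt. ADAMTS1 was at 30.0 ± 2.5 TPM in shAPT1 and 2.25 ± 0.48 TPM in control (4.30 ± 0.14, edgeR adjusted p = 2.5e-10). PLAU, the urokinase gene (-0.80 ± 0.09), HTRA1 (-0.77 ± 0.24) and MMP14 (-0.69 ± 0.07) were lower. In APT1wt 4 were higher and 4 lower (median 0.05), with HTRA1 (-2.13 ± 0.27), MMP3 (2.08 ± 0.55), MMP9 (1.80 ± 0.24) and ADAMTS1 (1.65 ± 0.16) the largest. MMP3 rested on few reads, 2, 2 and 9 in control and 37, 8 and 20 in APT1wt. In shAPT1 against APT1wt 3 were higher and 3 lower (median -0.04), with ADAMTS1 (2.65 ± 0.12), MMP9 (-2.10 ± 0.25), HTRA1 (1.35 ± 0.28) and the cathepsin gene CTSB (-0.55 ± 0.08) the largest.

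**Figure D5:**
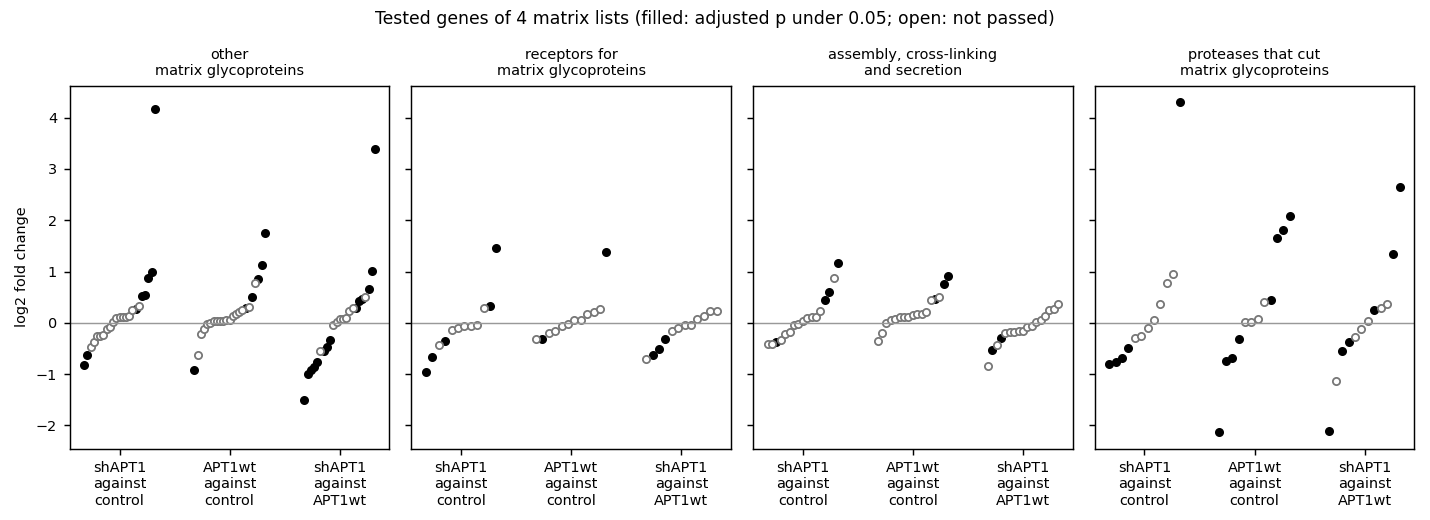
Log2 fold change (vertical axis) of every tested gene of 4 lists in the 3 comparisons, sorted within each. Filled points passed an adjusted p of 0.05 and open points did not. In each list genes lie on both sides of 0, and THBS2 at 4.17 and ADAMTS1 at 4.30 are the highest points in shAPT1 against control.

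Across the 9 libraries, the genes whose log2(TPM + 1) was most like that of FN1 among 11884 genes were TCP1 (Pearson r = 0.984), ALPK2 (0.975) and EDIL3 (0.975). EDIL3, a secreted integrin ligand gene, averaged 50.8 TPM in shAPT1, 40.2 TPM in APT1wt and 9.97 TPM in control. Those most like TNC were PLAU (0.976), COQ4 (0.974) and AUP1 (0.972), and PLAU averaged 161 TPM in shAPT1, 166 TPM in APT1wt and 268 TPM in control. The 9 points fall into 3 groups and share libraries and depth, so these values describe likeness only.

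In bulk RNA, fewer cells of a type and less RNA per cell cannot be told apart, and several of the 10 genes are strongly expressed by fibroblasts. The summed TPM of 9 fibroblast markers was 11.2 to 18.2 in shAPT1, 11 to 12.5 in APT1wt and 7.73 to 9.73 in control. Of the 3 markers tested, COL1A2 (1.69 ± 0.35), PDGFRB (1.39 ± 0.21) and COL1A1 (0.51 ± 0.13) were higher in shAPT1 against control, and PDGFRB (1.14 ± 0.21) and COL1A1 (0.54 ± 0.13) in APT1wt. Over all tested genes, 12.8% were higher and 11.6% lower in shAPT1, and 11.8% and 11.6% in APT1wt, each against control. The PDGFRB TPM ranges of shAPT1 and control overlapped, and COL1A2 held only 9 to 13 reads per control library. The part of fibroblasts in the results was not tested. The other 6 markers were not tested for low reads: DCN, LUM, COL3A1 and PDGFRA were at most 0.424 TPM in any library, FAP at most 0.567 TPM and THY1 at most 0.627 TPM. THY1 averaged 0.352 ± 0.32 TPM in shAPT1 and 0.0908 ± 0.16 TPM in control (SD, n = 3 each). The endothelial markers summed to 59.3 to 77.4 TPM in shAPT1, 102 to 106 TPM in APT1wt and 41.3 to 50.7 TPM in control, most of it from ESAM. Of the 4 endothelial markers tested, ESAM (0.44 ± 0.08) and TIE1 (2.08 ± 0.26, edgeR adjusted p = 6e-05) were higher in shAPT1 against control, with TIE1 at 3.13 ± 0.55 TPM in shAPT1 and 1.01 ± 0.61 TPM in control. In APT1wt against control ESAM was higher (1.23 ± 0.08) and KDR lower (-0.55 ± 0.18), and PECAM1 passed in neither. CDH5, VWF and TEK, not tested, were at most 0.252 TPM in any library. The leukocyte markers summed to at most 1.32 TPM in any library. The epithelial markers, mostly keratins that this line also makes, summed to 628 to 910 TPM in shAPT1, 692 to 705 TPM in APT1wt and 497 to 521 TPM in control. Of the 5 epithelial markers tested, 3 were higher and 0 lower in each line against control. In shAPT1 these were KRT8 (0.64 ± 0.10), KRT18 (0.54 ± 0.09) and CDH1 (1.04 ± 0.34, edgeR adjusted p = 0.038). The CDH1 TPM ranges of shAPT1 and control overlapped.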

How the data were processed

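The study sequenced RNA of 9 samples, 3 per group. Per the submitters' processing notes, the authors used FastQC, Salmon and DESeq2 on build GRCh38.p10, without versions. The deposited files of each library hold estimated counts and TPM for 199324 transcripts. A gene table, also deposited, holds a scaled signal whose scaling is not given in the sources used here. Estimated counts were summed per gene, rounded, filtered with filterByExpr, scaled by TMM and tested with edgeR 4.0.16 (quasi-likelihood, all 9 libraries, 3 groups, 3 contrasts, Benjamini-Hochberg over all genes, threshold 0.05). TPM was summed for levels. Transcripts were fitted in the same way, and their shares with diffSpliceDGE and limma 3.58.1 (R 4.3.3). The gene fit and diffSpliceDGE were tried on simulated data, and limma's share test was not. Alternatives included DESeq2 1.42.0 and limma-voom. Positions are from GENCODE 29, which matched all 27 FN1 and 14 TNC transcripts by identifier and length. Promoters are from RefSeq. Python 3.11.15, pandas 2.3.3 and matplotlib 3.10.9 made tables and figures.

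The genes and lists were chosen with earlier results of these data known. Named were all 10 genes, LYPLA1, up to 4 genes per list and comparison with the largest change among those past 0.05 with a mean of at least 1 TPM in either group, the 3 genes most like FN1 and TNC, and FN1 and TNC transcripts with a group mean of at least 1 TPM or past 0.05. Other genes and markers are named beside the result they touch. Precision is limited by 3 libraries per group at the depths given, and Salmon's assignment error between transcripts that share exons is not in the fits.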

Additional observations from a re-analysis of the deposited data

How the results depend on the processing

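The counts of called genes among the 9 tested stayed within 1.5 times of the reported ones in every setting: 5 or 6 higher and 2 lower in shAPT1 against control, 4 to 6 higher and 1 lower in APT1wt against control, and 3 or 4 each way in shAPT1 against APT1wt. Of 27 log2 fold changes, 19 kept direction and side of the threshold in every setting run. Reversed were FBLN1 in APT1wt against control (-0.03 with the length offset, -0.05 in the deposited table, -0.01 less the median of neighbouring genes), EFEMP1 in APT1wt against control (0.09 less that median) and, without APT1wt replicate 1, the same EFEMP1 value (0.06; -0.22 to 0.06 over the libraries left out) and FN1 in shAPT1 against APT1wt (-0.05; -0.05 to 0.19); none of these had passed. Genes called over the whole table fell to 1197 higher and 1113 lower (shAPT1 against control), 1141 and 1089 (APT1wt against control) and 1200 and 1170 (shAPT1 against APT1wt) with the length offset, and to 1197 and 1129, 1164 and 1072, and 1154 and 1203 in the deposited table. Leaving out 1 library gave 1427 to 2112 higher and 1189 to 1984 lower in shAPT1 against control, 1166 to 2434 and 1132 to 2391 in APT1wt against control, and 1317 to 2057 and 1256 to 2047 in shAPT1 against APT1wt. FN1 and TNC transcripts called with 1 library left out were 0 to 3 higher and 0 to 1 lower in shAPT1, and 0 to 2 higher in APT1wt, against control; at least 20 reads in 3 libraries gave 2 lower in shAPT1. With ENST00000456923.5 counted as holding EDB, chosen after seeing the data, the share differed by -1.21 points in shAPT1 against control and -0.101 points in shAPT1 against APT1wt. Leave-one-out differences of the EDB share ran from -7.96 to -4.4, from -4.9 to -1.34 and from -3.89 to -1.97 points, and those of EDA from -3.7 to 3.46, from -4.21 to 2.95 and from -1.14 to 3.75 points, in the 3 comparisons in the order above. Same-numbered libraries of different groups deviated from their group means with correlations of -0.05 to 0.10, and differently numbered ones with -0.11 to 0.07. The labels do not say whether the numbers pair the samples, and with 3 libraries per group these values cannot settle it. With a replicate block 6 genes were higher and 2 lower in shAPT1, and 6 and 1 in APT1wt, against control; 0 transcripts were lower in shAPT1 and 1 higher in APT1wt. The correction for neighbouring genes was also added later. The cause of these shifts was not tested.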
